A study of Mus musculus with 2 samples.

Results

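The cytosolic ribosomal protein genes were followed through primary and cultured costal-cartilage-derived stem cells (CDSCs) of the mouse. Members were chosen by gene symbol alone, as Rps or Rpl with a number and optional letters, Rplp0 to Rplp2, or Rpsa, which gave 82 of the 21849 gene rows, 32 of the small and 50 of the large ribosomal subunit. The single-cell transcriptomes of primary CDSCs and of cultured CDSCs at passages 2 to 3, each from 1 library, were compared to ask how expansion in culture alters these cells. Both groups came from the rib cartilage of newborn C57BL/6J mice, of the CD45.1 or the ZsGreen strain, digested with collagenase, with CDSCs defined as CD45- CD51+ cells. The sources used here do not say how many animals entered a library or which strain did. The labels name no drug or other agent, and the cultured group had grown in serum-containing medium.

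The cytosolic ribosome joins a small subunit, which reads the messenger RNA, to a large subunit, which forms the peptide bond. Each subunit is built from ribosomal RNA and a fixed set of small basic proteins, nearly all in equal number per ribosome, and their transcripts are among the most abundant in growing cells. Many of these transcripts start with a tract of C and T, by which mTOR signalling sets their translation. A few members have a paralogue that can take the parent's place in the ribosome.

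The tissue label of both libraries reads bone marrow. In the primary library all 12 chondrocyte markers reached a level of 10 CPM, counts scaled to a fixed library total, and their summed level was 82555 CPM. In the cultured library 2 of the 12 reached 10 CPM, with a summed level of 590 CPM. The 6 haematopoietic markers summed to 5.36 CPM in primary and 23.5 CPM in cultured CDSCs, and the 6 endothelial markers to 14.6 and 10.9 CPM. None of these lists holds a mast cell gene, and mast cell genes lead a primary cluster described below.

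Each value counts unique molecular identifiers (UMIs), which tag single captured transcript ends. After a filter on genes, UMIs and mitochondrial share, 11746 primary cells with a median of 10026.5 UMIs and 5338 cultured cells with a median of 56864.5 UMIs were kept. Of the deposited barcodes, 1.26% of the primary and 50.6% of the cultured ones failed the filter, and 15 kept barcodes were found in both. With 1 library per group no test was possible, and culture cannot be told apart from anything else in which the libraries differed. All intervals are exact 95% intervals of counting error alone.

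Coding sequences are shown for the parent and paralogue pairs that hold the 2 highest log2 ratios, since the counts of such pairs can be trusted only where the reads differ. They run from the start codon to the last codon before the stop, from GENCODE M21 transcripts on GRCm38, and capitals mark the bases at which a parent and its paralogue differ.
Rpl39: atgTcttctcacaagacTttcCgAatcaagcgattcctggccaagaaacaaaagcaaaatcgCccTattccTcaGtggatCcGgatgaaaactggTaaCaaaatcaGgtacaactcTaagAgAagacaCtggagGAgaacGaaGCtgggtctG
Rpl39l: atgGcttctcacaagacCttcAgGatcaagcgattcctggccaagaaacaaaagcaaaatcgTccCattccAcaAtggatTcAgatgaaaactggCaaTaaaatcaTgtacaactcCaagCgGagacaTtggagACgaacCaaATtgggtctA
Rps27: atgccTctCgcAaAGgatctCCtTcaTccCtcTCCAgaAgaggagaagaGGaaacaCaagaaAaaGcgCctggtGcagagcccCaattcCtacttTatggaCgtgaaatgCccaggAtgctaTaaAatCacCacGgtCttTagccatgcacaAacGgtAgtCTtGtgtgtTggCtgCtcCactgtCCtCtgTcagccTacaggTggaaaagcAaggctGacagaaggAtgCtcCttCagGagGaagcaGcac
Rps27l: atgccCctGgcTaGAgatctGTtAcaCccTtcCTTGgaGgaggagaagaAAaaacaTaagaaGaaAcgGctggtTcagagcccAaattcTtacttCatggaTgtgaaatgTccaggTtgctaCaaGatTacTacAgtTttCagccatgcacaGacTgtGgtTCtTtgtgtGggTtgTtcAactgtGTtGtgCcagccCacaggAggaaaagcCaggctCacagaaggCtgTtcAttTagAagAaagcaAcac

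Rpl39l differed from Rpl39 at 23 of 153 coding bases and Rps27l from Rps27 at 60 of 252, spread along the whole sequence. In contrast, the coding sequence of Rps27rt, an intronless copy, differed from Rps27 at 0 of 252 bases. Even the transcript starts of this pair read alike. The first 30 bases from each RefSeq start (GRCm38.p6) follow, with the stretch of 29 bases that both share in capitals, for Rps27 at chr3:90213619-90213648 and for Rps27rt at chr9:114982710-114982739, both on the minus strand.
Rps27: cCTTTCCGGCGGTGACGACCTCCCTACGAG
Rps27rt: CTTTCCGGCGGTGACGACCTCCCTACGAGa

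Because reads of the 3' kit come from the last stretch of a transcript, each member's last 400 bases were also cut into overlapping windows of 60 bases and looked up in the transcripts of all other genes. Of the 80 expressed members, 42 shared fewer than 50% of their windows and 19 shared none, Rpl39l among the latter. All windows of Rpl9, Rpl10 and Rpl36a and 98.6% of those of Rps27 also lay in another gene, mostly processed copies. Levels of these last members are therefore uncertain. The same reservation holds in part for other members with many shared windows, such as Rps27a (90.32%) and Rpl13 (87.68%).

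Ribosomal protein transcripts made up 16.9% of all UMIs of the primary library (interval 16.94% to 16.95%) and 20.1% of the cultured library (20.10% to 20.11%), a log2 ratio of 0.25. Per cell the median share was 16.7% in primary (quartiles 15.0% and 18.6%) and 17.9% in cultured CDSCs (14.9% and 21.8%). Cultured cells lay on both sides of the primary cells, and their quartiles enclosed those of the primary library. At an equal depth of 5000 UMIs drawn per cell the medians were 16.8% and 18.5%, with 787 primary and 795 cultured cells too shallow to enter. The spread between thinned cells was an SD of 2.79 percentage points in primary and 7.11 in cultured CDSCs, where counting alone would give 0.531 and 0.561. Without the 50 most abundant other genes of each library in the total, the log2 ratio of the shares was 0.02.

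The share also moved with depth. Among primary cells of 1000 to 2500 UMIs the median share was 5.90%, with a median mitochondrial share of 5.03%. In all deeper primary cells the medians by depth lay between 15.5% and 17.6%. Cultured cells of 5000 to 10000 UMIs had the highest median, 25.9%, and those of 20000 to 40000 UMIs had 16.6%. The part of cell quality in these differences was not tested.

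Each library was clustered without the members, so that their share could be read across cell states. Among primary clusters of at least 100 cells the summed share ran from 15.0% in cluster 9, led by mast cell genes such as Tpsb2 and Cpa3 beside Col1a1 and Postn, to 20.7% in cluster 8, led by Slc35f1, Runx3 and Wnt5b. Among cultured clusters of that size it ran from 16.4% in cluster 5, led by Mmp13 and Comp, to 23.6% in cluster 2, led by Klk8, Angptl7 and Saa3. The cluster led by mitotic genes such as Pbk, Cenpf and Hmmr had 15.7% in the primary library. Its cultured counterpart, led by Aspm, Pbk and Cenpe, had 20.7%. Cluster ranges of the libraries overlapped for the share as a whole.

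**Figure D1:**
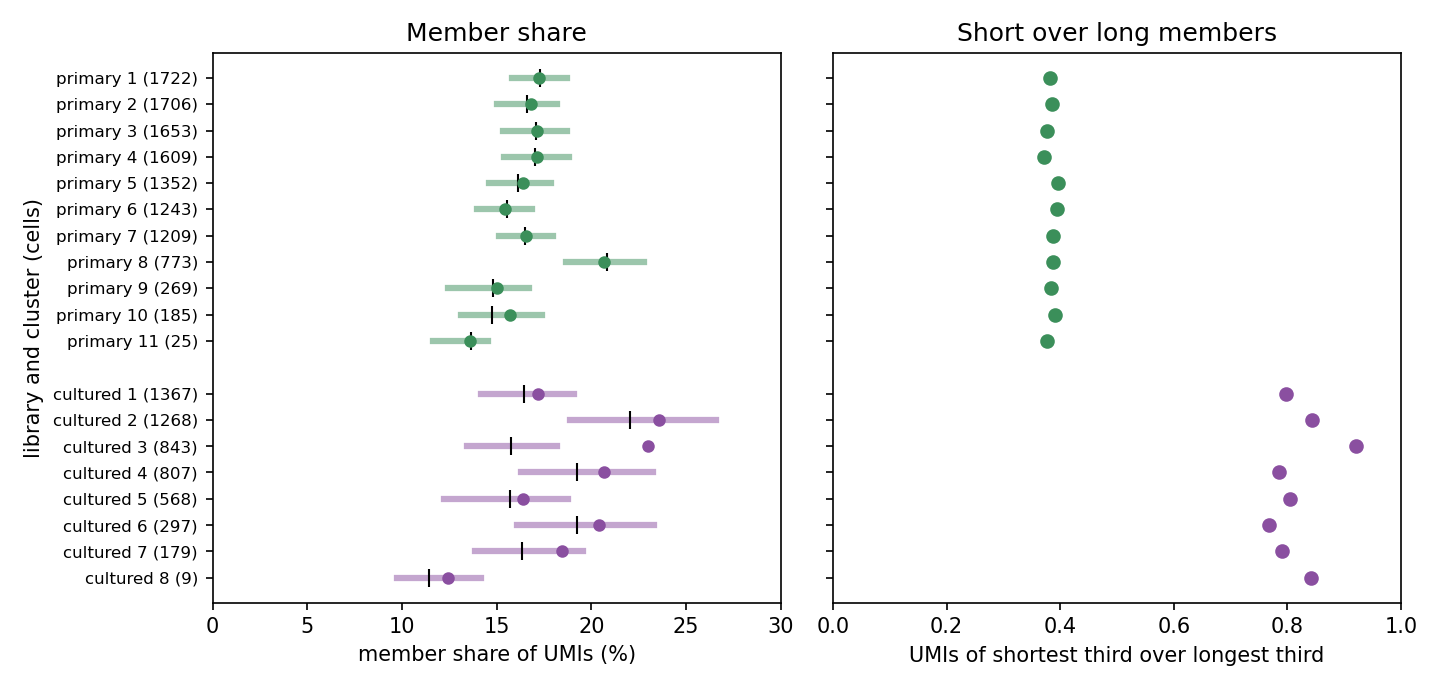
Each line is a Leiden cluster of the primary (green) or cultured (purple) library, with its number of cells in brackets. On the left, the x axis is the member share of UMIs in percent, points give the summed share, black ticks the median cell and bars its quartiles. On the right, the x axis is the summed UMIs of the shortest 27 expressed members over those of the longest 27. Shares of the libraries overlap, whereas the ratio lies between 0.372 and 0.396 in the primary and between 0.769 and 0.921 in the cultured clusters.

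Of the 82 members, 80 were expressed, with at least 10 CPM in either library, and 54 of these were higher and 26 lower in cultured CDSCs. This is 67.5% against 64.5% of all 9115 expressed genes, and thus close to the background. The median log2 ratio of cultured over primary CPM was 0.27 for the members and 0.37 for all genes. Among them 16 members were at least 2-fold higher, against 27.2% of all genes. Lower by 2-fold or more were Rps10 and Rps27rt, 2 of 80, against 12.5%. With TMM scaling, which moved every log2 ratio by -0.20, 42 of the same 80 members were higher and 38 lower. The 2-fold counts were 11 higher and 3 lower. Rpl39l was kept in these counts, although TMM scaling took its cultured level below 10 CPM.

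Among the most abundant members of the primary library were Rpl13 at 5920 CPM, Rplp0 at 5707, Rps4x at 4789 and Rps27a, a fusion with ubiquitin, at 4634. In cultured CDSCs they included Rps2 at 5470 CPM, Rps20 at 5058, Rpl13 at 4929 and Rplp1 at 4763. Rpl13 was thus abundant in both libraries. Over the 80 members the CPM of the libraries had a Spearman rho of 0.72. The median member stood at 1993 CPM in primary and 2394 CPM in cultured CDSCs, and 63 and 73 members passed 1000 CPM.

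**Figure D2:**
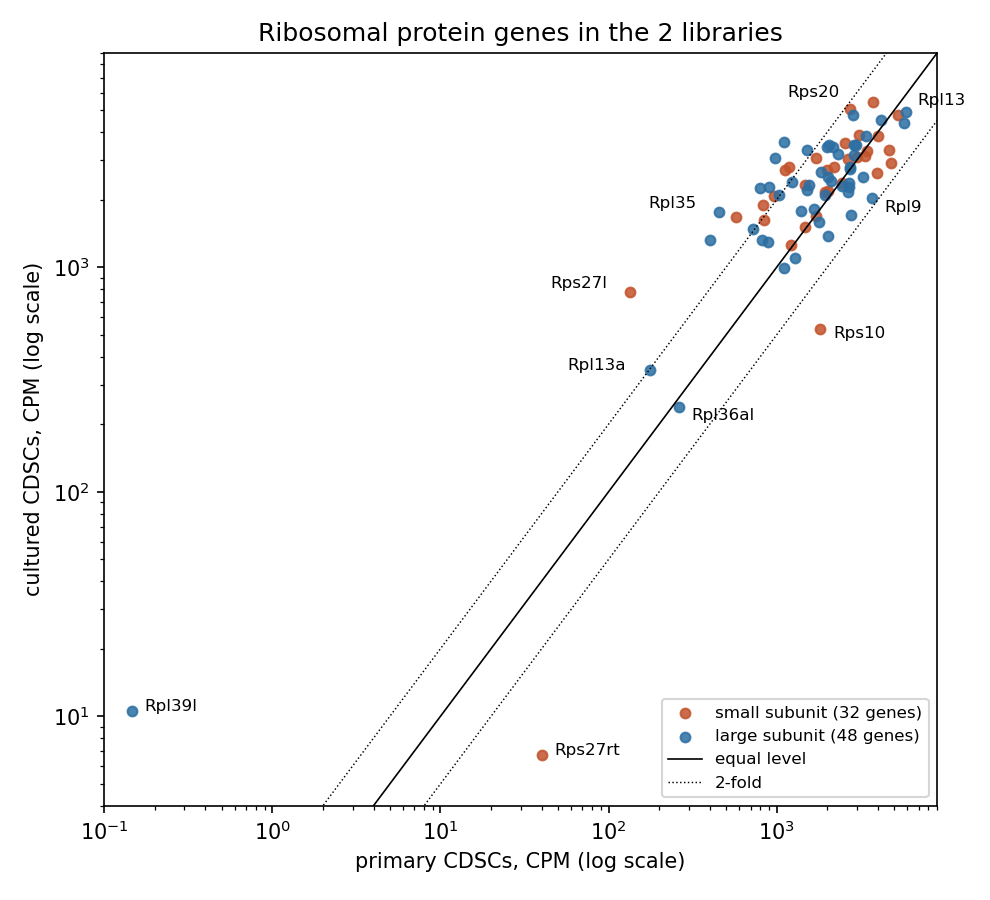
Each point is 1 of the 80 expressed members, with its CPM in primary CDSCs on the x axis and in cultured CDSCs on the y axis, both on log scales. The solid line marks equal levels and the dotted lines 2-fold differences. Most members lie above 1000 CPM near the line of equal levels, and Rpl39l, Rps27l, Rps27rt and Rps10 lie apart.

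A member was said to depart when its log2 ratio lay at least 1.5-fold from the member median. By this measure 30 members (37.5%) departed, 20 above and 10 below, against 56.7% of all genes, of which 31.5% lay above and 25.2% below. The departing share of members was thus lower than that of genes at large, but the measure is centred on the members' own median. Among the 174 non-members with at least 300 CPM in both libraries, 27 lay above and 46 below. The limit fell between Rps20 at 0.62 and Rps15a at 0.56 above the median on the upper side. On the lower side it fell between Rpl17 at -0.62 and Rpl6 at -0.55.

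Subunits were close to each other. The median log2 ratio was 0.17 over the 32 expressed small-subunit members and 0.30 over the 48 of the large subunit. UMIs of the small over the large subunit stood at 0.757 in primary and 0.720 in cultured CDSCs. The stalk, through which the large subunit engages the elongation factors, was split. Its base, Rplp0, was 5707 CPM in primary and 4386 CPM in cultured CDSCs (log2 ratio -0.38). Rplp1, which sits on Rplp0 as a dimer with Rplp2, was 2854 and 4763 CPM (0.74), and Rplp2 was 1228 and 2406 CPM (0.97).

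What the stalk showed was general. Members with short coding sequences were higher in cultured CDSCs and those with long ones were level or lower, with coding lengths from GENCODE M21. The median log2 ratio was 1.25 over the 12 expressed members with fewer than 300 coding bases and 0.58 over the 17 with 300 to under 400. It was 0.39 over 22 members with 400 to under 500 bases, -0.04 over 8 with 500 to under 600 and -0.10 over the 21 with 600 or more. Length classes were drawn after the values had been seen.

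Of the 20 members that departed upwards, 16 had fewer than 400 coding bases. Of the 10 that departed downwards, 9 had at least 450. Spearman's rho between log2 ratio and coding length was -0.65 over the 80 members, -0.69 without Rpl39l and Rps27rt, and -0.82 over the 42 members that shared fewer than 50% of their windows. These points are genes of the same library pair and no independent replicates. The primary CPM, which is part of each ratio, also followed it, with a rho of -0.61.

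**Figure D3:**
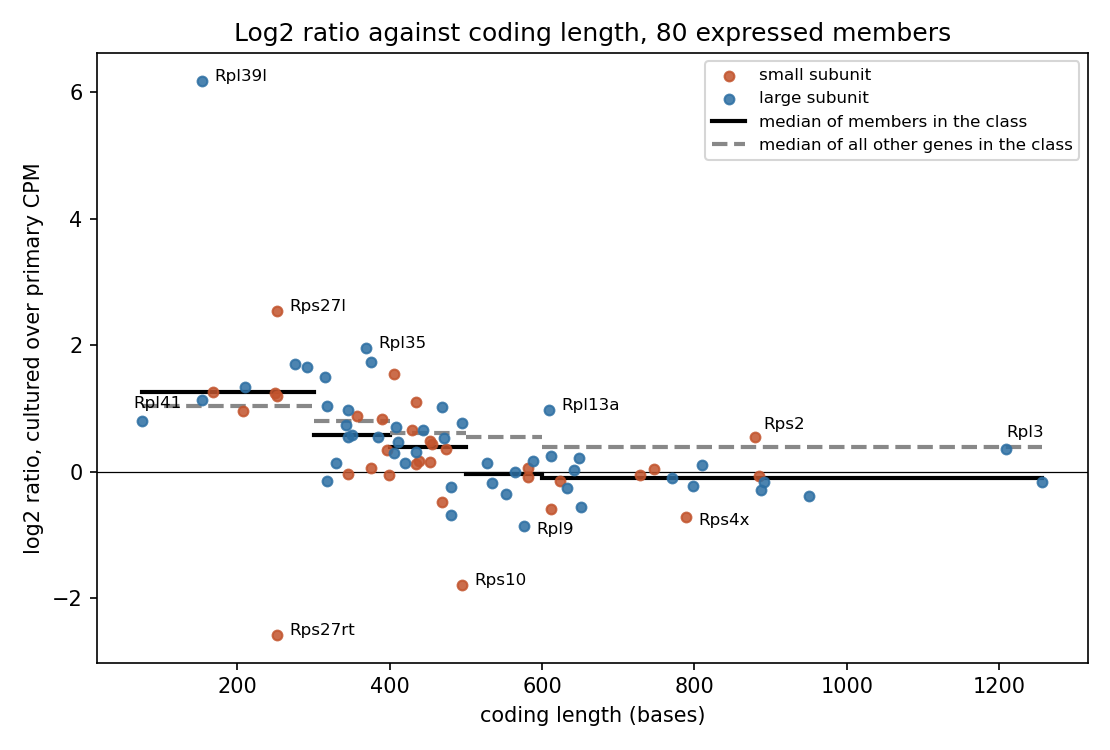
Each point is 1 of the 80 expressed members, with coding length in bases on the x axis and the log2 ratio of cultured over primary CPM on the y axis. Black lines give the median of the members and grey dashed lines that of all other expressed genes in 5 length classes. Member medians step down from 1.25 to -0.10 and those of the other genes from 1.04 to 0.38.

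Among the short members, Rpl35 stood at 456 CPM in primary and 1758 CPM in cultured CDSCs (log2 ratio 1.95), and 88.9% of its windows were shared. Rpl31, at the exit of the peptide tunnel, was 400 and 1326 CPM (1.73) with no window shared. Rpl37a, a zinc-binding protein, was 1105 and 3602 CPM (1.71). All 3 were higher in every cultured cluster of at least 100 cells than in any such primary cluster.

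Rpl37 followed with 974 and 3061 CPM (1.65), again with no window shared. Rpl38, whose loss in mice alters the axial skeleton, was 901 and 2288 CPM (1.34). Rps29 was 1127 and 2706 CPM (1.26). Rps21 was 1180 and 2790 CPM (1.24). These members encode proteins of either subunit, so the pattern crossed the subunit border.

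Rpl36, Rps27, Rpl39, Rps15, Rpl36a and Rpl23a were also higher by 2-fold or more, from Rpl36 at 797 CPM in primary and 2254 CPM in cultured CDSCs down to Rpl23a with a log2 ratio of 1.02. Just under 2-fold were Rplp2, Rpl13a, Rps28 and Rps20, between 0.89 and 0.97. Rpl13a was the longest member that departed upwards, with 609 coding bases, 178 CPM in primary and 348 CPM in cultured CDSCs.

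Of the 26 members that stood lower, 17 were among the longest, 6 of middle length and 3 short, split as described below. Rps4x was 4789 CPM in primary and 2920 CPM in cultured CDSCs (log2 ratio -0.71). Rpl14 was 2034 and 1384 CPM (-0.56). For both the cultured clusters of at least 100 cells all lay below the primary ones.

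Rpl9 was 3690 and 2039 CPM (-0.86), with the reservation that all of its windows were shared. Rpl29, a heparin-binding protein, was 2773 and 1717 CPM (-0.69). Rps27a was 4634 and 3317 CPM (-0.48), and Rpl17 was 3244 and 2531 CPM (-0.36). Here too windows were shared, 54.55% for Rpl29, 90.32% for Rps27a and 67.74% for Rpl17. Longer members such as Rps2 (879 coding bases, log2 ratio 0.54) and Rpl3 (1209 bases, 0.36) were higher all the same.

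Split at 392 and 546 coding bases into 3 sets, the shortest members took 3.04% of primary and 5.85% of cultured UMIs, and the longest took 7.89% and 7.22%. In the shortest set 24 of 27 members were higher in cultured CDSCs, and 13 were at least 2-fold higher. Of 492 non-members of like length 383 were higher and 227 at least 2-fold higher, a share close to that of the short members. In the longest set 10 of 27 were higher, and 0 were 2-fold apart in either direction. Both subunits showed it. The medians of shortest and longest were 0.92 and -0.07 in the small subunit and 1.04 and -0.13 in the large subunit.

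The ratio of UMIs from the shortest to the longest set was 0.385 in primary and 0.810 in cultured CDSCs. It lay between 0.372 and 0.396 in all 11 primary clusters and between 0.769 and 0.921 in all 8 cultured clusters, with no overlap. The upper end came from cultured cluster 3, of 843 shallow cells with a median of 1250 UMIs. The next highest cultured cluster, cluster 2, had 0.843. A primary cluster of 25 cells led by the endothelial genes Gpihbp1 and Myct1 had 0.377. A cultured cluster of 9 cells led by Dock2, Fcrls and Pf4, genes of macrophages and platelets, had 0.842. Barcodes that had failed the filter had a ratio of 0.432 (primary) and 0.859 (cultured). Both of these cultured sets thus stood above both primary sets. The part of transcripts from other cells in these small clusters and failed barcodes was not tested.

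Other genes showed a like, shallower gradient. Among non-members the median log2 ratio was 1.04 under 300 coding bases (209 genes), 0.80 at 300 to under 400, 0.61 at 400 to under 500, 0.55 at 500 to under 600 and 0.38 at 600 or more (2808 genes). Among the non-members of at least 300 CPM in both libraries these medians were 0.35, 0.19, 0.26, 0.10 and 0.10. Their rho with coding length was -0.14 over the 4089 non-members within the length range of the members. Set against non-members of like coding length, the member median was -0.29 in place of 0.27, and 22 members departed, 21 of them among the 30 named above.

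Cluster by cluster, 32 of 80 members (40.0%) were higher in every cultured cluster of at least 100 cells than in every such primary cluster, against 25.6% of all genes. A further 8 (10.0%) were lower in every cultured cluster, against 13.1%. All 20 members that departed upwards and 8 of the 10 that departed downwards were among these. Departing members were chosen by their ratio in the same counts, so this overlap is no separate support for them. Within a library the members kept their proportions. The SD of a member's centred log2 level over clusters had a median of 0.07 for primary and 0.08 for cultured CDSCs, and it passed 0.25 in 1 primary and 3 cultured members, which in cultured CDSCs were Rpl39l, Rps26 and Rps27rt. Their fewest UMIs in a cultured cluster were 27, 5482 and 18. The primary one was Rpl39l, with as few as 0 UMIs in a cluster. The part of counting error in these SDs was not tested.

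The highest log2 ratios were those of the paralogues Rpl39l and Rps27l, and the lowest was that of the copy Rps27rt. Rpl39l passed the limit of 10 CPM only through the cultured library and Rps27rt only through the primary library. The filter thus fixed the direction of these 2 rows. Rpl39l, the paralogue of the tunnel-lining protein Rpl39 and known from male germ cells, lies on chr16:10170226-10174911 on the plus strand (ENSMUSG00000039209, 3 exons). It had 20 UMIs in the whole primary library (0.146 CPM) and 3485 UMIs in the cultured library (10.6 CPM), a log2 ratio of 6.18 (interval 5.55 to 6.89). Its parent Rpl39 was 1516 CPM in primary and 3313 CPM in cultured CDSCs (1.13). Rpl39l thus stayed far below its parent in both libraries.

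These Rpl39l transcripts were held by few cells. Cultured cluster 7, of 179 cells with Ptn and Thy1 among its leading genes, had 49.9% of them at 134.5 CPM, and the dividing cluster 4 had 38.5% at 20.6 CPM. The shallow cluster 3 had 22.8 CPM from 43 UMIs. Other cultured clusters of at least 100 cells lay between 0.932 and 2.02 CPM, and no primary cluster passed 0.392 CPM. A UMI of Rpl39l was found in 155 of the 179 cells of cluster 7 (median depth 59613 UMIs) but in 56 of the 1367 cells of cluster 1 (median depth 64618 UMIs).

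Within the dividing cluster 4, Rpl39l was again uneven. At least 5 UMIs were found in 80 cells and none in 667 of its 807 cells. The 80 cells also carried the 10 genes that lead cluster 7, at a summed 1192 CPM against 92.4 CPM in the 667 cells and 2177 CPM in cluster 7 itself. Cnn1, a calponin of smooth muscle and myofibroblasts, was 475 CPM in the 80 cells and 40.4 CPM in the 667. Thy1, a surface protein of fibroblasts and other mesenchymal cells, was 97.0 and 1.83 CPM. Median depth was 81550.5 UMIs in the 80 cells and 73585 in the 667, and the part of doublets in this overlap was not tested.

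Rps27l, the p53-responsive paralogue of Rps27, lies on chr9:66946086-66949516 on the plus strand (ENSMUSG00000036781, 4 exons). It stood at 134 CPM in primary and 778 CPM in cultured CDSCs, a log2 ratio of 2.54 (interval 2.52 to 2.56), with 23.8% of its windows shared. Unlike Rpl39l it was spread over all clusters, at 116 to 158 CPM in primary and 589 to 953 CPM in cultured clusters of at least 100 cells. Its parent Rps27 was 833 and 1901 CPM (1.19).

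Rps27rt (ENSMUSG00000050621), of a single exon on chr9:114982366-114982739, was 40.3 CPM in primary and 6.75 CPM in cultured CDSCs (log2 ratio -2.58). As the sequences above show, a read of Rps27 can be placed on Rps27rt, and 90.8% of its windows were shared. The row therefore cannot be read as expression of this copy. The 4 expressed rows of processed pseudogenes named after members stood lower in cultured CDSCs. Rps18-ps5 and Rpl36a-ps1 passed 10 CPM only in the primary library, at 11.5 and 14.0 CPM, which fixed their direction. Rps18-ps6, under the limit in both libraries, went the other way, at 0.168 CPM in primary and 1.51 CPM in cultured CDSCs. Rpl10-ps3 had a log2 ratio of -1.68, Rps18-ps5 -2.28, Rpl9-ps6 -2.50 and Rpl36a-ps1 -2.51. Adding the pseudogene rows to their parents moved the log2 ratio of Rpl36a from 1.04 to 1.01 and that of Rpl9 from -0.86 to -0.88. The member median stayed at 0.27, but it rests on members in the middle of the ranking and says little about these rows.

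Rpl36a and its paralogue Rpl36al had equal coding lengths of 318 bases and differed at 39 of them. Rpl36a was 719 CPM in primary and 1475 CPM in cultured CDSCs (log2 ratio 1.04), and Rpl36al was 263 and 238 CPM (-0.14). The parent and paralogue thus went apart, although all windows of Rpl36a and 78.0% of those of Rpl36al were shared with other genes. Rpl3l, the muscle paralogue of Rpl3, had 17 UMIs in primary and 19 in cultured CDSCs. Rpl10l, the germ cell paralogue of Rpl10, had 1 and 0 UMIs, with upper limits of 0.0406 and 0.0112 CPM by the exact Poisson interval. Neither was expressed by the limit used here.

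**Figure D4:**
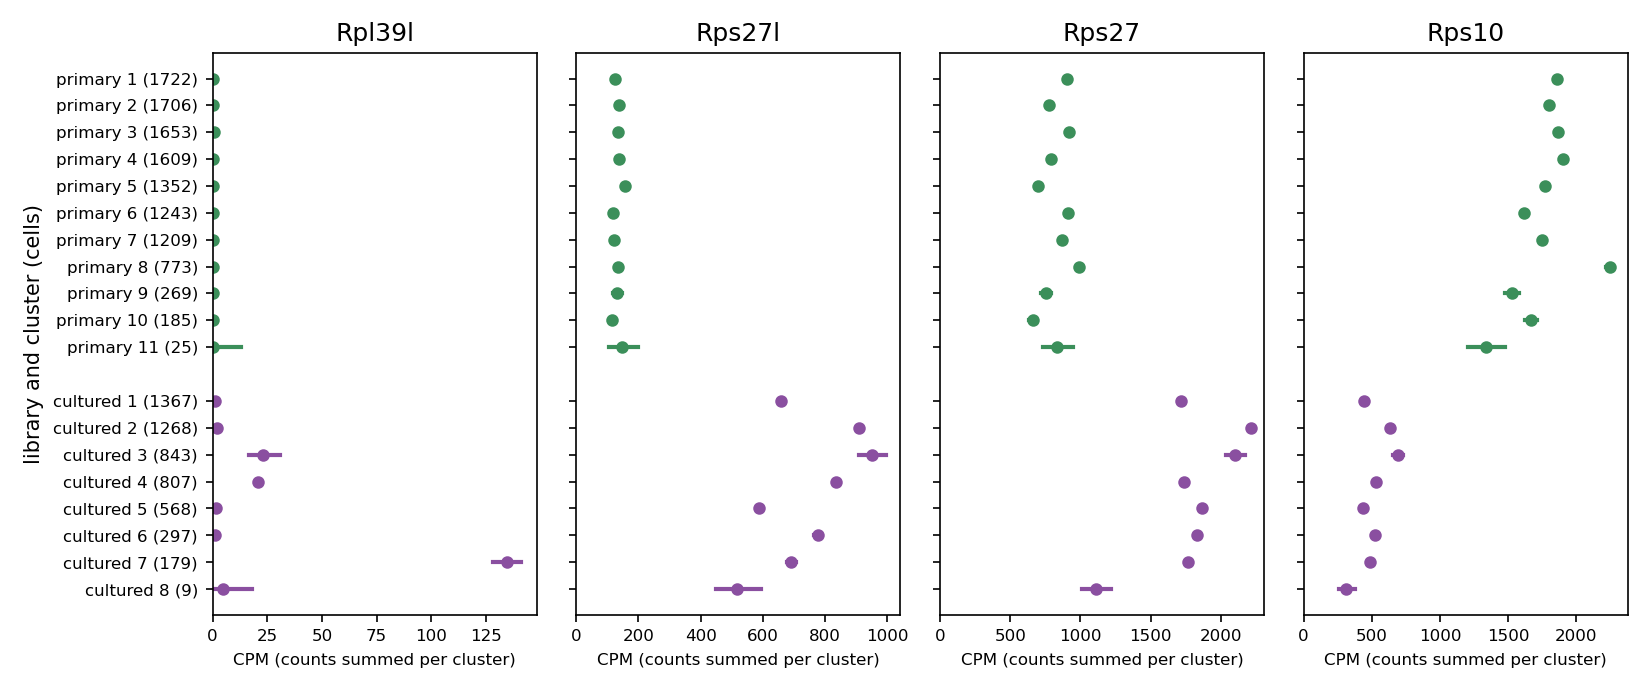
Each line is a cluster of the primary (green) or cultured (purple) library, with its number of cells in brackets, and the x axes give CPM of the counts summed per cluster for Rpl39l, Rps27l, Rps27 and Rps10. Bars are exact 95% Poisson intervals. Rpl39l peaks at 134.5 CPM in cultured cluster 7, Rps27l and Rps27 are higher in each cultured cluster than in each primary cluster, and Rps10 is lower.

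Rps10, a small-subunit protein at the head of the subunit, had the lowest log2 ratio of the members that passed 1000 CPM in either library. It lies on chr17:27630418-27636669 on the minus strand (ENSMUSG00000052146, 6 exons). Its level was 1821 CPM in primary and 528 CPM in cultured CDSCs, a log2 ratio of -1.79 (interval -1.79 to -1.78). Primary clusters of at least 100 cells lay between 1527 and 2244 CPM and cultured ones between 438 and 693 CPM. Of its windows 73.9% also lay in other genes, most often in the overlapping readthrough gene RPS10-NUDT3, so its level is uncertain.

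The tract of C and T at the start was looked up in RefSeq windows from 20 bases before to 50 bases after each listed start, as an unbroken run of at least 8 bases that are each C or T on the transcribed strand. Among the 62 members with a window, 48 (77.4%) held such a run, against 28.5% of all 27025 genes listed. The expressed members with the run had a median log2 ratio of 0.31 (47 genes) and those without it 0.16 (13 genes). Their ranges overlapped, from -1.79 to 2.54 and from -2.58 to 6.18. A run is a match of letters and no measure of translation.

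Other genes of the pathway were read from lists chosen by function. Of 21 translation factors and related transcripts, 12 were higher and 9 lower, with a median log2 ratio of 0.05. Nap1l1, a histone chaperone, was 122 CPM in primary and 418 CPM in cultured CDSCs (1.78), and Naca, of the nascent chain complex, was 950 and 1428 CPM (0.59). The lowest were Hnrnpa1 (-0.84), Eif3f (-0.51) and the elongation factor Eef2 (-0.47). TMM scaling moves the log2 ratios of these and the following lists by the same -0.20, which turns the sign of positive medians and ratios smaller than that.

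Of 30 expressed ribosome biogenesis genes 14 were higher and 16 lower, against 64.5% of all genes higher, with a median log2 ratio of -0.07. Summed, they took 0.289% of primary and 0.328% of cultured UMIs, a log2 ratio of 0.18. The transcription factor Myc, which drives ribosome production, was 140 CPM in primary and 24.9 CPM in cultured CDSCs (log2 ratio -2.49). Rrp12 (-1.53), a factor of subunit maturation, and Ltv1 (-1.34), of small-subunit export, followed. Rrp12 passed 10 CPM only in the primary library, at 20.1 CPM against 6.97 CPM in cultured CDSCs, which fixed its direction. Polr1a, the large subunit of RNA polymerase I, was 11.8 and 29.0 CPM (1.30), followed by Wdr12 (1.15) and Nhp2 (0.95).

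Regulators of these transcripts through mTOR had a median of 0.25 over 12 expressed genes. At least 2-fold higher were 4, Tsc2 (log2 ratio 1.16), Eif4ebp1 (1.08), Mtor (1.05) and Rictor (1.01), against 27.2% of all genes. Tsc2 passed 10 CPM only in the cultured library, at 19.7 CPM against 8.82 CPM in primary CDSCs, which fixed its direction. The lowest were Rheb (-0.77), Tsc1 (-0.27) and Eif4ebp2 (-0.25). Rpl22l1 and Rpl7l1, paralogues whose symbols fall outside the choice of members, had 0.31 and 0.06.

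Proteins of the mitochondrial ribosome, a separate family made in the cytosol, stood further up. Of 76 expressed genes 69 were higher in cultured CDSCs, 27 of them by 2-fold or more, and 0 were lower by as much, with a median log2 ratio of 0.81. Over all genes 64.5% were higher, 27.2% by 2-fold or more, and 12.5% were lower by as much. The highest were Mrps21 (2.27), Mrpl34 (2.12) and Mrpl33 (1.89), and the lowest were Mrps28 (-0.99), Mrpl48 (-0.59) and Mrpl4 (-0.26). They took 0.319% of primary and 0.558% of cultured UMIs. Their median coding length was 582 bases, and non-members of 500 to under 600 coding bases had a median log2 ratio of 0.55, with 306 of 420 higher.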

How the data were processed

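Per the labels and the study's methods, libraries were made with the 10x Chromium Single Cell 3' v3.1 kit, and the authors used Cell Ranger 7.0.0. The methods also name the MobiDrop platform for these cells, and the sources used here do not say how it entered. What the authors deposited are unnormalised UMI counts for each gene and barcode. The labels name GRCm38, mm10 and GRCm39 without saying which gave the counts, and strand settings were not given in the sources used here. Gene identifiers matched GENCODE M21, from which coordinates and lengths of GRCm38 came, for 21707 of 21849 rows.

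Barcodes were kept from 500 genes and 1000 UMIs upwards if no more than 10% of the UMIs were mitochondrial, independently of the study, whose thresholds were not given. They held 137148874 primary and 330129909 cultured UMIs. Scrublet called 0 and 1 doublets and had not worked, so no doublets were removed. Counts were summed per library and scaled to CPM, and counts under 3 were raised to 3 in ratios. Genes of at least 10 CPM in either library counted as expressed. Intervals are exact (Poisson, binomial or conditional) at 95%. Clusters came from Leiden (leidenalg 0.10.2, scanpy 1.11.5; resolution 0.5, 20 neighbours, 10 components, 2000 variable genes without the members). TMM came from edgeR 4.0.16.

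The members and lists were chosen with earlier results of these data known. Length classes and the cells chosen by Rpl39l counts were set after the values had been seen. Named members are those that departed, the 5 most abundant of each library, the 5 highest and 5 lowest ratios, paralogues and stalk, and of each list the 3 highest and 3 lowest. Rps26, Rpl3, Rpl6, Rps15a, Rpl10, the pseudogene rows and the genes that lead clusters were named after their values were seen. A list of snoRNA host genes was not analysed here. Some members and other genes covered by these rules are not reported here.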

Additional observations from a re-analysis of the deposited data

How the results depend on the processing

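The log2 ratio of the member share, 0.25, was 0.24 with every barcode, 0.24 with at least 5000 UMIs per cell, 0.25 with at most 5% mitochondrial UMIs, 0.23 without the highest Scrublet scores, 0.18 with each cell weighing the same, 0.050 with TMM, 0.25 without mitochondrial genes in the total, 0.023 without the 50 most abundant other genes, 0.24 with pseudogene rows added and 0.25 without clusters of shallow cells. The median member ratio, 0.27, was 0.26 with every barcode, 0.25 without the highest Scrublet scores, 0.20 with equal cells, 0.048 with TMM, 0.043 without the 50 most abundant other genes and -0.29 relative to non-members of like coding length. This last setting turned Rps28 to -0.084 and Rplp1 to -0.060. It and the one without shallow clusters were chosen after seeing the data. Leaving out the highest Scrublet scores took away 1132 primary and 933 cultured cells. Because Scrublet had not worked, that setting says nothing about doublets. The small-subunit median less that of the large subunit, -0.13, was -0.15 without the highest Scrublet scores, -0.15 with equal cells, -0.12 with TMM and -0.17 relative to like coding length.

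With a limit of 2-fold from the median, 12 members departed in place of 30. Relative to like coding length 22 departed, 21 of them among the 30. The same 30 departed under the other settings, of which those that change only the total move every ratio alike and so say little about this count. TMM and the total without the 50 most abundant genes work by moving every log2 ratio, by -0.20 and -0.22. Such a shift alone leaves a difference of medians unchanged. With the TMM factor of 1.07 for the cultured library, Rpl39l, at 10.6 CPM before, fell under the limit of 10 CPM. The TMM values of the member median and of the subunit difference thus also reflect a changed set of expressed members. Causes of the other shifts were not tested. No paired analysis was possible because each group had 1 library, and for the same reason no replicate could be left out. Depth limits Rpl3l, Rpl10l and Rpl39l in the primary library, each with 20 UMIs or fewer.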
